A study of Mus musculus with 4 samples.

Results

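Antisense transcripts are RNAs read from the DNA strand opposite a named gene, and in human nomenclature they carry that gene's symbol followed by -AS and a number. The 480 genes described here are those whose symbol in the array platform's annotation has that form, out of 14884 genes that the annotation names. Each was represented by the probe set with the highest mean over all 4 arrays. The cells were SW620, an established line from a human colon carcinoma, with 2 samples treated with F5446 at 50 nM for 2 days and 2 untreated control samples, here called Ctrl. F5446 inhibits SUV39H1, the enzyme that trimethylates histone H3 at lysine 9 in repressed chromatin, and is given as selective for it, and the labels name no genetic change in either group. The replicates are called biological, but nothing ties them to separately grown cells, so each p reflects only how far these arrays spread, which may be technical. Mouse is the species written in the labels, yet both the line and the array's probe sets are human, and the values were read as human. SW620 is a single tumour line, which limits what it can stand for.

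Antisense transcripts are a mixed class. Some start at the same promoter region as their sense gene and run the other way, some overlap its body or its end, and a few have been shown to act on chromatin, on translation or on the stability of the sense mRNA. Most are long non-coding RNAs of low abundance, and many transcripts of this kind are removed in the nucleus by the RNA exosome and its cofactors. Labelled target was made from sense-strand cDNA, so each probe set was designed to read a single strand. Signal is given throughout as log2 signal of a probe set, and signals of different probe sets are not compared as amounts of RNA.

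SUV39H1 mRNA had log2 signals of 7.47 and 7.36 in F5446 cells, against 9.12 and 9.17 in Ctrl cells. SUV39H2 mRNA had 6.76 and 6.69 in F5446 cells, against 7.79 and 7.83 in Ctrl cells. F5446 acts on the enzyme, so these mRNA values do not show whether it was inhibited. Over the 480 antisense genes, the 2 F5446 arrays correlated at r = 0.984 and the 2 Ctrl arrays at r = 0.980, while pairs of an F5446 and a Ctrl array correlated at 0.907 to 0.912. Each r runs across genes, and genes are not independent of each other. Of 10 colon epithelium markers with a named probe set, 8 lay above the median of all probe sets on every array, among them EPCAM and KRT18, and 2 rose and 5 fell. Of 5 stromal and endothelial markers, 0 lay above it on every array, and LUM alone fell. Of 4 immune markers, 3 lay above it on every array and CD4 and LYZ fell. The mean log2 signal of the immune list was 4.81 and 4.80 in F5446 cells and 5.55 and 5.62 in Ctrl cells, and that of the stromal list was 3.45 and 3.60 in F5446 cells and 4.08 and 4.0 in Ctrl cells. Their part in the results below was not tested. The labels name no cells other than SW620, so these markers are not read as other cell types. In bulk RNA, fewer cells with a transcript and less of it per cell cannot be told apart.

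After F5446, 45 of the 480 antisense transcripts rose, 50 fell and 385 did not pass the test, which was limma's moderated test with Benjamini-Hochberg adjustment over all named genes at 0.05. That is 19.8% of the antisense genes, against 40.9% of all named genes, of which 18.2% were higher and 22.7% lower. All 95 that passed had F5446 arrays that lay wholly above or wholly below both Ctrl arrays. Over all 480 the groups did not overlap at 253 genes, or 52.7%, against 66.2% of all named genes. The median log2 fold change was -0.06 over the antisense genes and -0.05 over all named genes. When every array was set to a common median over the named genes, which shifted the median of all genes by 0.13, 61 antisense transcripts were higher and 37 lower, and their median was 0.07, so the balance of rises and falls and the sign of the median depended on the scaling. Without F5446 replicate 1 the count of rises was 27. Of the 385 that did not pass, 283 had a log2 fold change within 0.25 of 0, and 24 had an unadjusted p under 0.05.

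Low signal went with a low share of calls. The median log2 signal was 4.13 over the antisense genes and 5.62 over all named genes, and 206 antisense genes (42.9%) reached 4.43, the median of all probe sets, here called the dim limit. Among these 206, 34 rose and 38 fell, or 35.0%, beside 55.7% of all named genes at or above that limit, of which 25.2% were higher and 30.6% lower. Among the 274 antisense genes under it, 23 passed, or 8.39%, beside 8.12% of all named genes under it. The table has no detection calls, so for a transcript near the lower end of the signal range a fold change may understate the true one. Of the 95 that passed, 62 were at or above the dim limit on every array and 15 were under it on every array. In 3 of the rises both Ctrl arrays lay under it and both F5446 arrays above, and in 8 of the falls both F5446 arrays lay under it and both Ctrl arrays above.

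**Figure D1:**
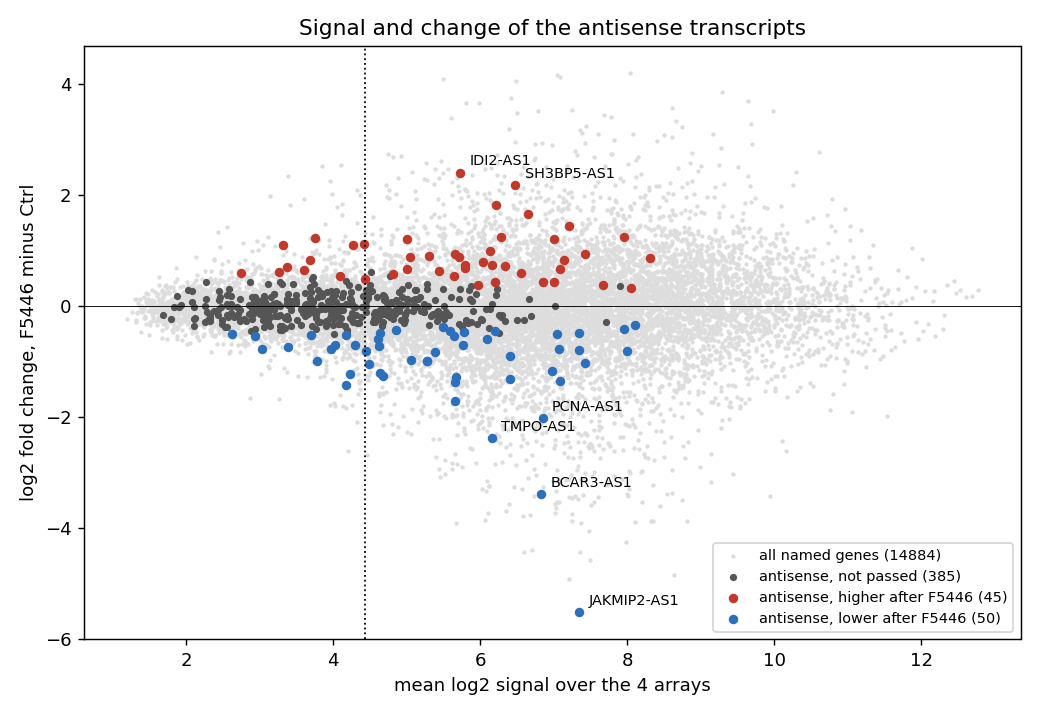
Log2 fold change (F5446 minus Ctrl, vertical axis) against mean log2 signal over the 4 arrays (horizontal axis) for all 14884 named genes in light grey and the 480 antisense genes in dark grey (not passed), red (45 higher) and blue (50 lower). The dotted line is the dim limit of 4.43, below which 274 antisense genes lie, and JAKMIP2-AS1 is the lowest point of the plot.

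The largest fall of any named gene on the arrays was that of an antisense transcript. JAKMIP2-AS1, named for the gene of a protein that binds Janus kinases and microtubules, had log2 signals of 4.84 and 4.35 in F5446 cells, against 10.04 and 10.19 in Ctrl cells. Both treated arrays lay near the dim limit and both untreated arrays far above it. Its log2 fold change was -5.52 ± 0.15 (SE, n = 2 each, adjusted p = 2.86e-08 in limma's test), or 45.9-fold lower, which ranked 1 among 14884 genes. The sense gene JAKMIP2 was under the dim limit on every array, with 2.71 and 2.78 in F5446 cells and 3.80 and 3.46 in Ctrl cells. It also fell, by 0.89 on the log2 scale (SE 0.18, adjusted p = 0.0034), but at so dim a signal the size of its fall, and of its difference from JAKMIP2-AS1, cannot be read closely.

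BCAR3-AS1 had log2 signals of 5.06 and 5.21 in F5446 cells, against 8.65 and 8.40 in Ctrl cells, a 10.5-fold fall (log2 fold change -3.39 ± 0.12, SE, adjusted p = 9.02e-08). Its partner BCAR3, an adaptor protein tied to antiestrogen resistance in breast cancer cells, went the other way, as described below. TMPO-AS1 and PCNA-AS1 followed. Both are named for genes of dividing cells: TMPO encodes the nuclear lamina protein LAP2, and PCNA the sliding clamp of DNA replication. TMPO-AS1 had 4.93 and 5.02 in F5446 cells, against 7.53 and 7.18 in Ctrl cells, a 5.22-fold fall (log2 fold change -2.38 ± 0.14, SE). PCNA-AS1 had 5.92 and 5.76 in F5446 cells, against 7.76 and 7.96 in Ctrl cells, a 4.06-fold fall (log2 fold change -2.02 ± 0.12, SE). All 4 were picked among members whose groups do not overlap, so that they are separate is no further result. The gap between the groups was many times the distance between arrays of the same group.

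The next largest falls were smaller and came from genes of varied function. LPP-AS2, named for a LIM-domain protein of cell adhesions, had 4.66 and 4.94 in F5446 cells and 6.54 and 6.5 in Ctrl cells, a 3.29-fold fall. PTPRG-AS1, named for a receptor tyrosine phosphatase, had 3.44 and 3.49 in F5446 cells and 4.88 and 4.88 in Ctrl cells, a 2.67-fold fall that ended under the dim limit. ATP2A1-AS1, named for the calcium pump SERCA1, had 4.95 and 4.99 in F5446 cells and 6.44 and 6.25 in Ctrl cells. Its log2 fold change was -1.37 ± 0.13 (SE), and no partner probe set was named for it or for PTPRG-AS1. C10orf95-AS1 had 6.41 and 6.40 in F5446 cells and 7.66 and 7.84 in Ctrl cells, a 2.54-fold fall, while another probe set for it had a log2 fold change of 0.01. MNX1-AS1, named for a homeobox transcription factor, had 5.74 and 5.78 in F5446 cells and 7.17 and 6.96 in Ctrl cells, a 2.48-fold fall. TMEM44-AS1, named for a transmembrane protein, had 5.11 and 4.95 in F5446 cells and 6.25 and 6.39 in Ctrl cells, a 2.44-fold fall. The other 40 antisense transcripts that fell had log2 fold changes from -1.26 to -0.35, with a median of -0.72.

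**Figure D2:**
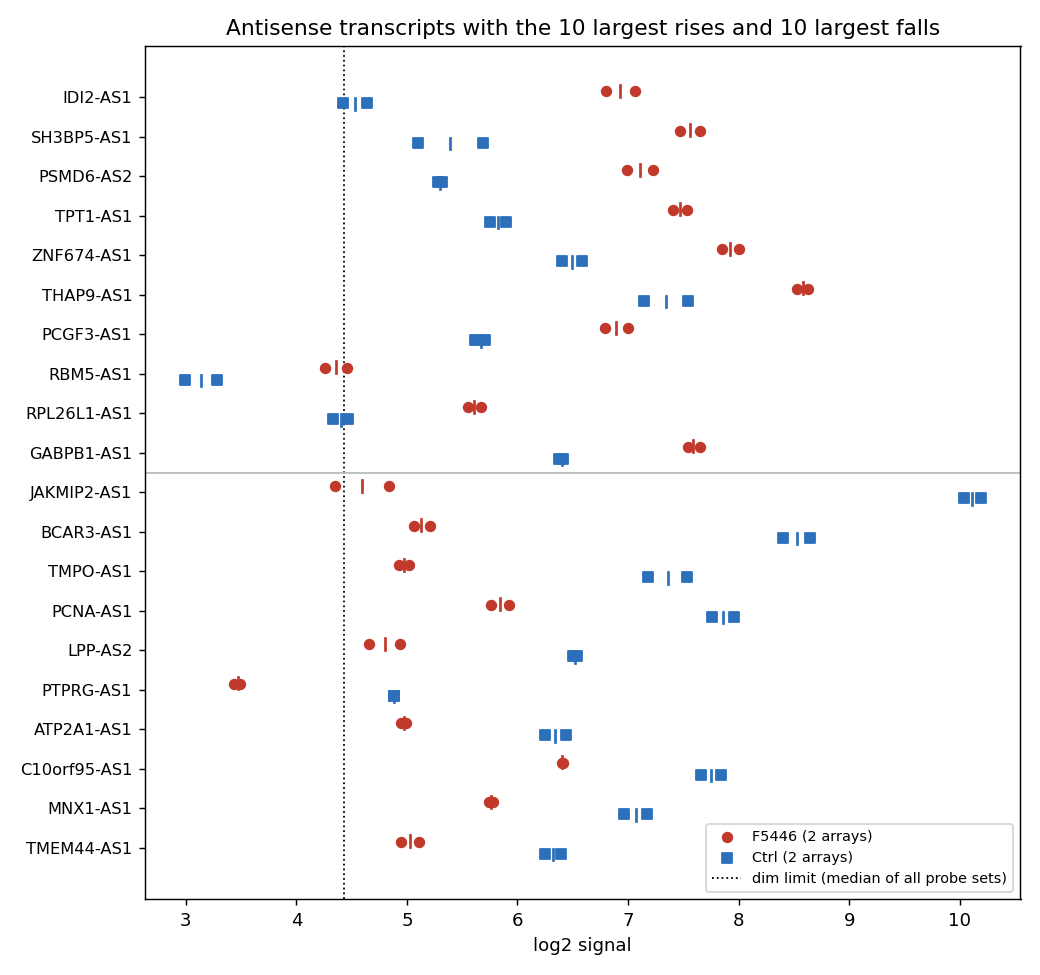
Log2 signal on each array for the antisense transcripts with the 10 largest rises (upper block) and the 10 largest falls (lower block) among those that passed. Red circles are the 2 F5446 arrays and blue squares the 2 Ctrl arrays. Short vertical lines are the group means and the dotted line is the dim limit of 4.43. Only members with groups that do not overlap were picked, so the groups are separate in every row, most widely in JAKMIP2-AS1.

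No antisense transcript rose by as much as JAKMIP2-AS1 and BCAR3-AS1 fell. IDI2-AS1, named for an isopentenyl diphosphate isomerase of isoprenoid synthesis, had log2 signals of 7.06 and 6.80 in F5446 cells, against 4.42 and 4.64 in Ctrl cells, a 5.27-fold rise (log2 fold change 2.40 ± 0.15, SE, adjusted p = 1.97e-06). SH3BP5-AS1, named for a JNK-binding protein of mitochondria, had 7.65 and 7.47 in F5446 cells, against 5.69 and 5.10 in Ctrl cells, a 4.49-fold rise (log2 fold change 2.17 ± 0.18, SE). The Ctrl arrays of SH3BP5-AS1 were the farther apart, and still lay well below both F5446 arrays. PSMD6-AS2, named for a subunit of the proteasome's regulatory particle, had 6.99 and 7.23 in F5446 cells, against 5.28 and 5.32 in Ctrl cells, a 3.51-fold rise. TPT1-AS1, named for the translationally controlled tumour protein, had 7.53 and 7.41 in F5446 cells, against 5.90 and 5.75 in Ctrl cells, a 3.14-fold rise. Neither PSMD6 nor TPT1 had a named probe set here.

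ZNF674-AS1, named for a zinc finger gene, had 8.0 and 7.85 in F5446 cells and 6.58 and 6.40 in Ctrl cells, a 2.70-fold rise. THAP9-AS1, named for a THAP-domain protein related to a transposase, was also one of the 5 brightest antisense transcripts, with 8.53 and 8.63 in F5446 cells and 7.54 and 7.14 in Ctrl cells, a 2.37-fold rise. PCGF3-AS1, named for a Polycomb ring finger protein, had 7.00 and 6.79 in F5446 cells and 5.62 and 5.71 in Ctrl cells, a 2.34-fold rise. As with the falls, the largest rises were picked among members whose groups do not overlap, so their separation is no further result. RBM5-AS1, named for a regulator of splicing, had 4.46 and 4.26 in F5446 cells and 3.28 and 2.99 in Ctrl cells, a 2.33-fold rise at the dim end of the range. RPL26L1-AS1, named for a ribosomal protein, had 5.67 and 5.55 in F5446 cells and 4.47 and 4.33 in Ctrl cells, a 2.32-fold rise, and another probe set for it had a log2 fold change of 0.44. GABPB1-AS1, named for a subunit of the transcription factor GABP, had 7.65 and 7.54 in F5446 cells and 6.41 and 6.38 in Ctrl cells, a 2.29-fold rise. The other 35 that rose had log2 fold changes from 0.32 to 1.12, with a median of 0.68. Across the 20 largest changes the adjusted p ran from 2.86e-08 to 0.000498, and all 20 kept their call in each of the 12 alternative settings that tested them.

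At least a 2-fold change was reached by 13 of the rises and 16 of the falls, or 2.71% and 3.33% of the 480, beside 5.40% and 7.32% of all named genes. Among the 5 brightest antisense transcripts, EPB41L4A-AS1, which hosts a small nucleolar RNA, had 8.84 and 8.64 in F5446 cells and 8.27 and 7.49 in Ctrl cells, a 1.81-fold rise (adjusted p = 0.00844). That call was lost without either F5446 replicate, without an intensity trend (adjusted p = 0.0562) and with every probe set tested (adjusted p = 0.0686). DHRS4-AS1, reported elsewhere to silence the DHRS4 dehydrogenase genes through chromatin, had 7.59 and 7.60 in F5446 cells and 8.45 and 8.37 in Ctrl cells, a 1.76-fold fall. Another probe set for it, dim at a mean log2 signal of 2.88, had a log2 fold change of -0.02. PITPNA-AS1 had 7.96 and 7.90 in F5446 cells and 8.32 and 8.25 in Ctrl cells (log2 fold change -0.35 ± 0.08, SE), with an adjusted p of 0.00571, or 0.0515 with each array centred and 0.0627 without F5446 replicate 2. PAX8-AS1 had 8.31 and 8.12 in F5446 cells and 8.04 and 7.75 in Ctrl cells, with an adjusted p of 0.0487 that went as high as 0.337 without F5446 replicate 1; it also exceeded 0.05 without Ctrl replicate 2 and without F5446 replicate 2.

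Of antisense transcripts with published roles in tumours, listed by name irrespective of their values, FGD5-AS1 fell 1.71-fold, with 6.72 and 6.64 in F5446 cells and 7.42 and 7.49 in Ctrl cells. HIF1A-AS2 rose 2.17-fold, with 4.86 and 5.11 in F5446 cells and 3.58 and 4.15 in Ctrl cells (adjusted p = 0.00232). Along with TMPO-AS1 these were the members of that list that passed. CDKN2B-AS1, known as ANRIL and studied for Polycomb recruitment at the CDKN2A and CDKN2B locus, had 4.62 and 4.35 in F5446 cells and 4.39 and 4.40 in Ctrl cells, with overlapping groups. ZEB1-AS1 did not pass at 0.28 ± 0.14 on the log2 scale (SE, adjusted p = 0.159), though it did when each array was centred, with a value of 0.40. MCM3AP-AS1 had -0.30 ± 0.14, SBF2-AS1 -0.14 ± 0.17, AFAP1-AS1 0.16 ± 0.16 and FEZF1-AS1 -0.08 ± 0.18 (log2 fold changes with SE). OIP5-AS1 and HIF1A-AS1 were not among the named probe sets and were not analysed here.

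A sense partner with a named probe set was found for 315 antisense transcripts, and 303 different genes served as partner, since some genes have more than 1 antisense transcript. Of these 303 partners, 72 rose and 60 fell, or 43.6%, beside the 40.9% of all named genes. Their median log2 signal was 5.87 and their median log2 fold change 0.00. Both members of the pair passed in 36 cases, in the same direction in 24 and in opposite directions in 12. The antisense transcript alone passed in 29 pairs, the sense gene alone in 104, and neither in 146.

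The partner's call was read against that of the antisense transcript. Of 35 antisense transcripts that fell and had a partner, the partner fell in 14 (40.0%), rose in 7 (20.0%) and did not pass in 14. Of 250 that did not pass, the partner fell in 46 (18.4%) and rose in 58 (23.2%). Of 30 that rose, the partner rose in 10 (33.3%), fell in 5 (16.7%) and did not pass in 15. These shares were not tested against each other. Across the 315 pairs the log2 fold changes of antisense and sense correlated at Pearson's r = 0.159 and Spearman's rho = 0.207. In the 127 pairs with both members at or above the dim limit, the values were 0.155 and 0.204. The points share the same 4 arrays, and some share a partner, so the correlations are given as a description.

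Pairs whose sense gene changed at least 2-fold were looked at apart. Of all 315 antisense transcripts with a partner, 9.52% rose and 11.1% fell. The 18 pairs whose sense gene had a fall of 2-fold or more held 5 antisense transcripts that fell and 2 that rose, with a median antisense log2 fold change of -0.19. The 21 pairs whose sense gene had a rise of 2-fold or more held 3 antisense transcripts that rose and 3 that fell, with a median of 0.04. To test whether members of a pair differed, the within-array difference of antisense minus sense log2 signal was compared between the groups. The change of the antisense transcript differed from that of its partner in 123 of 315 pairs, or 39.0% (60 with the antisense transcript relatively higher, 63 with it relatively lower). In the 127 pairs with both members at or above the dim limit, 65 differed (27 with the antisense transcript relatively higher, 38 relatively lower). The fit gave every pair the same SE of 0.23, so its p-values assume 1 spread for all pairs. With the genes' own SEs, a setting chosen after the data were seen, 112 pairs passed, of which 107 were among the 123.

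**Figure D3:**
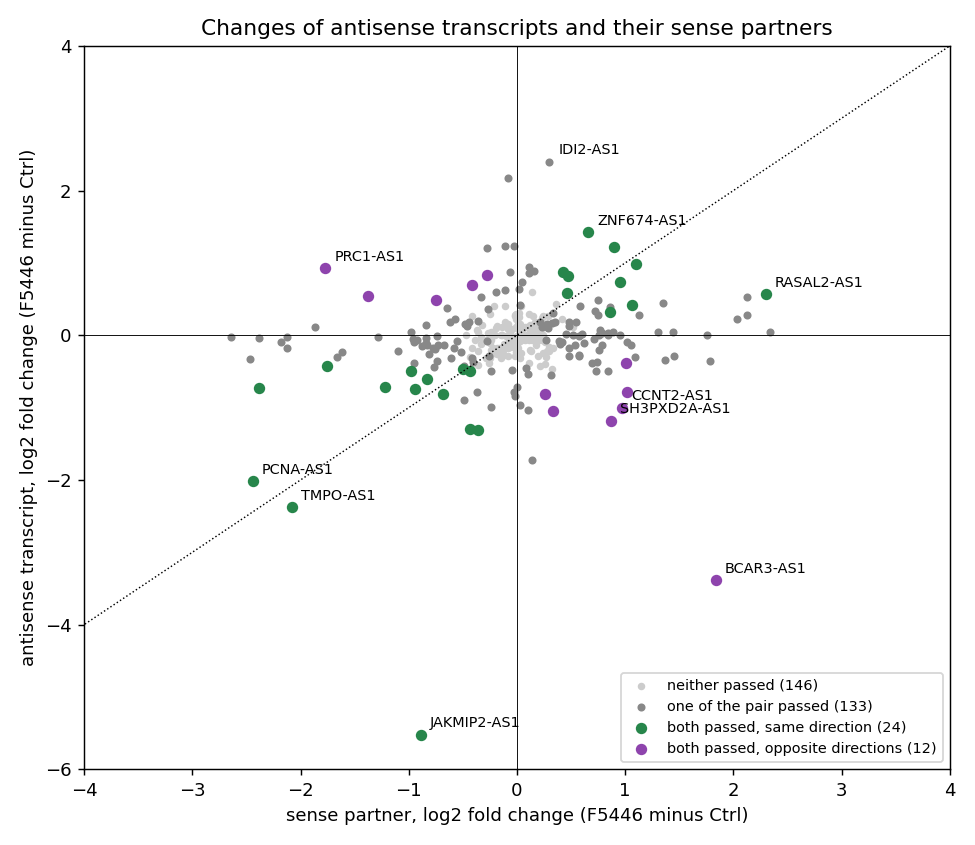
Log2 fold change (F5446 minus Ctrl) of each antisense transcript (vertical axis) against that of its sense partner (horizontal axis) for 315 pairs. Green points are the 24 pairs in which both passed in the same direction, purple the 12 in opposite directions, dark grey those in which 1 member passed (the antisense transcript in 29, the sense gene in 104) and light grey the 146 in which neither did; the dotted line marks equal change, and most points lie near one of the axes.

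Among the pairs that fell together, beside that of JAKMIP2, were those of PCNA and TMPO. PCNA had log2 signals of 8.86 and 8.91 in F5446 cells, against 11.27 and 11.38 in Ctrl cells, a 5.42-fold fall beside the 4.06-fold fall of PCNA-AS1. The difference between their log2 fold changes was 0.42 ± 0.23 (SE, adjusted p = 0.143), or adjusted p = 0.0302 with the genes' own SEs. TMPO had 7.37 and 7.52 in F5446 cells, against 9.51 and 9.53 in Ctrl cells, a 4.22-fold fall beside the 5.22-fold fall of TMPO-AS1. Here the difference of -0.31 ± 0.23 (SE, adjusted p = 0.315) did not pass, which does not show that they fell alike. DIAPH3, which encodes a formin that shapes actin and acts in cytokinesis, fell by 2.38 on the log2 scale, while DIAPH3-AS1 fell by 0.73 and DIAPH3-AS2 had -0.04 (adjusted p = 0.898). DIAPH3 and the pairs named in the next 2 paragraphs without values per array were picked after their values were seen.

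Further pairs that fell together are given as single examples. FZD10, a Wnt receptor, fell by 1.22 and FZD10-AS1 by 0.71 on the log2 scale. DLX6, a homeobox gene, fell by 0.94 and DLX6-AS1 by 0.74. LOXL1, an enzyme that crosslinks elastin, fell by 0.98 and LOXL1-AS1 by 0.50. STARD4, a cholesterol transport protein, fell by 1.76, and STARD4-AS1 by 0.43 with an adjusted p of 0.0456. The fold changes of antisense and sense differed by the test in the STARD4 pair (1.34 ± 0.23, SE) and not in the other 3, although the LOXL1 pair passed with the genes' own SEs (adjusted p = 0.0343). The call of STARD4-AS1 was lost when each of the 4 arrays was left out in turn, with each array centred, with every probe set tested and under the replicate block. The calls of FZD10-AS1 and LOXL1-AS1 were lost without F5446 replicate 1, and that of DLX6-AS1 without Ctrl replicate 1 or F5446 replicate 2. MNX1 had 5.93 and 5.94 in F5446 cells and 6.28 and 6.30 in Ctrl cells, a smaller fall than that of MNX1-AS1 by 0.95 ± 0.23 (SE). TMEM44 had 5.96 and 6.23 in F5446 cells and 6.62 and 6.44 in Ctrl cells, and DHRS4 had 6.09 and 6.62 in F5446 cells and 6.99 and 7.08 in Ctrl cells. The calls of these 3 sense genes were lost in several settings. Adjusted p reached 0.155 for MNX1 with each array centred, 0.233 for TMEM44 without F5446 replicate 1 and 0.0886 for DHRS4 without Ctrl replicate 2.

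Pairs that rose together included splicing and zinc finger genes. RBM5 had log2 signals of 9.06 and 9.04 in F5446 cells and 8.18 and 8.11 in Ctrl cells, a 1.87-fold rise beside the 2.33-fold rise of RBM5-AS1. ZNF674 had 6.08 and 5.95 in F5446 cells and 5.54 and 5.16 in Ctrl cells, a 1.58-fold rise that was smaller than that of ZNF674-AS1 by 0.77 ± 0.23 on the log2 scale (SE, adjusted p = 0.00328). The adjusted p of ZNF674 was 0.0989 without F5446 replicate 1, 0.0527 without F5446 replicate 2 and 0.0586 without Ctrl replicate 2, so its call was lost each time. PAX8, a paired-box transcription factor, had 6.53 and 6.43 in F5446 cells and 5.47 and 5.77 in Ctrl cells, a 1.82-fold rise. ZSWIM8, part of a ubiquitin ligase that degrades Argonaute with its microRNA, rose by 1.10 and ZSWIM8-AS1 by 0.99. RASAL2, a GTPase-activating protein for RAS, rose by 2.30 and RASAL2-AS1 by 0.57, a difference of -1.74 ± 0.23 (SE). The call of RASAL2-AS1 was lost without Ctrl replicate 2, without either F5446 replicate and with every probe set tested. Of the 24 pairs that moved together, 7 kept both calls in all 12 alternatives that tested them, namely those of DIAPH3, FRMD6, JAKMIP2, PCNA, RBM5, TMPO and ZSWIM8.

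In 12 pairs the antisense transcript and its partner passed in opposite directions. A test of the difference within these pairs adds nothing, since they were chosen by opposite calls on the same arrays. BCAR3 was the widest. It had log2 signals of 6.97 and 7.19 in F5446 cells, against 5.20 and 5.28 in Ctrl cells, a 3.59-fold rise beside the 10.5-fold fall of BCAR3-AS1. SH3PXD2A, the podosome scaffold TKS5, had 6.39 and 6.44 in F5446 cells and 5.71 and 5.39 in Ctrl cells, a 1.82-fold rise. SH3PXD2A-AS1 had 6.34 and 6.41 in F5446 cells and 7.5 and 7.62 in Ctrl cells, a 2.27-fold fall. In both pairs all treated arrays lay on opposite sides of the untreated ones for the sense and the antisense probe set.

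CCNT2, a cyclin of the elongation factor P-TEFb, had 8.26 and 8.26 in F5446 cells and 7.28 and 7.31 in Ctrl cells, a 1.95-fold rise. CCNT2-AS1 had 4.68 and 4.86 in F5446 cells and 5.70 and 5.84 in Ctrl cells, a log2 fold change of -1.0 ± 0.15 (SE). ZNF503, a zinc finger repressor, had 7.38 and 7.22 in F5446 cells and 6.15 and 6.42 in Ctrl cells, a 2.02-fold rise. ZNF503-AS1 was under the dim limit on every array, with 3.51 and 3.65 in F5446 cells and 4.36 and 4.36 in Ctrl cells, a 1.71-fold fall, and its 2 further probe sets changed by -0.41 and -0.63 on the log2 scale. ZNF503-AS2 had -0.09 (adjusted p = 0.783). ZBTB11, RBM15 and LIMD1 also rose while their antisense transcripts fell: ZBTB11 by 1.01, RBM15, a subunit of the RNA m6A writer complex, by 0.33, and LIMD1, a LIM-domain scaffold, by 0.26 on the log2 scale. ZBTB11-AS1 had -0.38 ± 0.13 (SE), RBM15-AS1 -1.05 ± 0.17 and LIMD1-AS1 -0.81 ± 0.24.

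The reverse arrangement, a rising antisense transcript with a falling sense gene, was seen in 5 pairs. PRC1, which bundles microtubules at the midzone during cytokinesis, had 7.39 and 7.24 in F5446 cells, against 9.04 and 9.13 in Ctrl cells, a 3.42-fold fall. PRC1-AS1 had 6.11 and 6.15 in F5446 cells, against 5.05 and 5.35 in Ctrl cells, a 1.91-fold rise (adjusted p = 0.000695). So PRC1 and PCNA, both genes of proliferating cells, fell beside antisense transcripts that moved opposite ways. CCDC18 fell by 1.38 on the log2 scale while CCDC18-AS1 rose by 0.54, and PAXIP1, a BRCT-domain protein of the DNA damage response, fell by 0.75 while PAXIP1-AS2 rose by 0.49. HEXA, a subunit of lysosomal hexosaminidase, fell by 0.42 while HEXA-AS1, dim on every array, rose by 0.69. THUMPD3, a tRNA methyltransferase, fell by 0.28 while THUMPD3-AS1 rose by 0.83.

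Of the 12 opposite pairs, 5 kept both calls in all 12 alternatives that tested them, those of BCAR3, CCNT2, PRC1, SH3PXD2A and ZNF503. In the others 1 or both calls were lost, and only 5 opposite pairs passed without F5446 replicate 2, 6 without Ctrl replicate 2 and 7 without F5446 replicate 1. The adjusted p went up to 0.16 for CCDC18-AS1, 0.127 for HEXA-AS1, 0.187 for LIMD1-AS1, 0.214 for LIMD1, 0.157 for PAXIP1-AS2, 0.0825 for RBM15, 0.124 for THUMPD3 (with each array centred) and 0.217 for ZBTB11-AS1. With every probe set tested, all of these calls but that of RBM15 were lost. THUMPD3, LIMD1 and LIMD1-AS1 also lost theirs without an intensity trend. Among the fits with an array left out, RBM15 lost its call without F5446 replicate 1 or 2. HEXA-AS1 did so without Ctrl replicate 2 or F5446 replicate 2, and CCDC18-AS1 and THUMPD3 without Ctrl replicate 2 or either F5446 replicate. LIMD1-AS1 kept its call without F5446 replicate 1 and lost it without any other single array, while LIMD1, PAXIP1-AS2 and ZBTB11-AS1 lost theirs whichever array was left out.

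**Figure D4:**
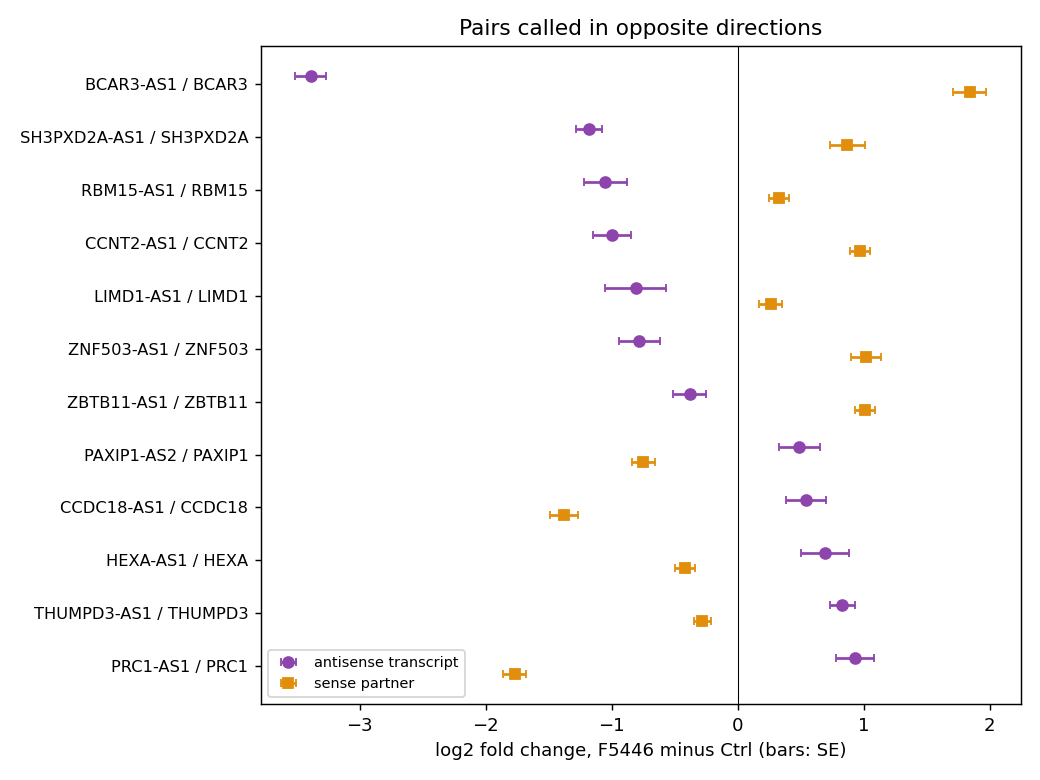
Log2 fold change (F5446 minus Ctrl, horizontal axis) of the antisense transcript (purple circle) and its sense partner (orange square) in the 12 pairs that passed in opposite directions; bars are SEs from limma's fit. In the upper 7 pairs the antisense transcript fell and the sense gene rose, and in the lower 5 the reverse holds, with BCAR3 the widest pair.

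In 29 pairs the antisense transcript passed and its partner did not. The difference between them passed in 23 of these, or in 20 with the genes' own SEs. The 29 pairs were chosen by their calls on the same arrays, so the difference test adds little to those calls. IDI2 had 4.12 and 3.99 in F5446 cells and 4.14 and 3.37 in Ctrl cells, with overlapping groups, beside the 5.27-fold rise of IDI2-AS1 (difference 2.10 ± 0.23, SE). SH3BP5 had 5.84 and 5.97 in F5446 cells and 5.93 and 6.05 in Ctrl cells, beside the 4.49-fold rise of SH3BP5-AS1 (difference 2.25 ± 0.23, SE). LPP had 5.35 and 5.33 in F5446 cells and 5.18 and 5.22 in Ctrl cells, a log2 fold change of 0.14 ± 0.14 (SE) beside -1.72 for LPP-AS2. The LPP groups did not overlap but lay close together, and those of SH3BP5 overlapped. PCGF3 had a log2 fold change of -0.03 ± 0.09 (SE), THAP9 -0.11 ± 0.24 and RPL26L1 -0.28 ± 0.13, each differing from its antisense transcript by the test. EPB41L4A was dim on every array, at 2.79 to 3.02, and did not pass, while EPB41L4A-AS1 did.

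In 104 pairs the sense gene passed and the antisense transcript did not, 58 with a rise and 46 with a fall of the sense gene. The difference passed in 72 of the 104. These pairs too were chosen by their calls on the same arrays, so that count adds little to the calls. Examples picked after their values were seen are SPAG5, a mitotic spindle protein, with a log2 fold change of -2.64 beside -0.03 for SPAG5-AS1. EGFR, the receptor for epidermal growth factor, had 2.34 beside 0.05 for EGFR-AS1. Both antisense transcripts were dim, with mean log2 signals of 4.30 and 3.50. ZEB1, a repressor active in the epithelial-mesenchymal transition, had 7.62 and 7.67 in F5446 cells and 5.62 and 5.42 in Ctrl cells, a 4.37-fold rise. ZEB1-AS1 had 5.24 and 5.27 in F5446 cells and 4.97 and 4.98 in Ctrl cells. The ZEB1 groups are far apart and those of ZEB1-AS1 are close though not overlapping, and the difference in log2 fold change was -1.85 ± 0.23 (SE). SBF2, a regulator of membrane traffic, rose 1.46-fold, with 8.47 and 8.31 in F5446 cells and 7.87 and 7.82 in Ctrl cells, while the groups of SBF2-AS1 overlapped.

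Antisense transcripts grouped by the kind of gene they are named for, a grouping made after the values were seen, behaved as mixed sets. Of 12 named for homeobox, paired-box and ZEB genes or clusters, 2 rose (LHX4-AS1 and PAX8-AS1) and 5 fell (MNX1-AS1, LBX2-AS1, DLX6-AS1, ZEB2-AS1 and HOXA-AS3). That is 58.3% in all, beside 19.8% of all antisense genes and 40.9% of all named genes. Only the calls of MNX1-AS1 and LBX2-AS1 were kept in every alternative setting, other than the replicate block, that tested them. The log2 fold changes of the 12 ran from -1.31 to 0.42, with a median of -0.33. Of 14 named for genes with a ZNF symbol, 2 rose (ZNF674-AS1 and ZNF143-AS1), 1 fell (ZNF503-AS1) and 11 did not pass, so that 21.4% passed, close to the 19.8% of all antisense genes, with a median of -0.03. Antisense transcripts of the same gene did not always share a call. FRMD6-AS1 rose by 0.73 on the log2 scale while FRMD6-AS2, dim at a mean log2 signal of 2.86, had 0.01 (adjusted p = 0.983). DLGAP1-AS1 fell by 0.42, and DLGAP1-AS3 and DLGAP1-AS5, both dim, had similar values of -0.37 and -0.37 without passing. Whether such members differ from each other was not tested. Of 24 antisense genes with several probe sets, 10 passed, and in 8 of these every probe set had a fold change of like sign. Like sign does not mean like size, as 1 probe set of DHRS4-AS1 had a log2 fold change of only -0.02.

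Other long non-coding RNAs, taken by symbol, gave the antisense class a comparison. Of 458 genes with a LINC symbol, 39 rose and 43 fell, or 17.9%, with a median log2 signal of 3.70 and a median log2 fold change of -0.01. With each array centred 53 rose and 30 fell. LINC00622 led them, with 8.67 and 8.35 in F5446 cells and 4.28 and 4.65 in Ctrl cells, a 16.5-fold rise, followed by LINC00707 at 4.95-fold and LINC00520 at 4.22-fold. Of 29 transcripts with an -IT symbol, which lie within introns of the named gene, 7 rose (24.1%) and 0 fell, beside 18.2% higher and 22.7% lower over all named genes, with a median log2 fold change of 0.07. N4BP2L2-IT2 rose 5.95-fold, RPS6KA2-IT1 2.49-fold and ASAP1-IT1 2.46-fold. Of 6 with an -OT symbol, 1 rose and 2 fell: ST7-OT4 rose 2.49-fold, while ANXA2R-OT1 fell 2.05-fold and SLC9A3-OT1 1.56-fold. The antisense class was not tested against these classes.

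Genes that remove or sense such RNAs were counted in the same way, without a test of either list. Of 29 measured genes of nuclear RNA decay, all at or above the dim limit, 7 rose and 15 fell, or 75.9%, beside 55.7% of all named genes at or above it, with a median log2 fold change of -0.17, against -0.05 over all named genes. INTS9, a subunit of the Integrator complex that cleaves nascent transcripts, fell 2.23-fold, with 6.58 and 6.36 in F5446 cells and 7.51 and 7.75 in Ctrl cells. EXOSC6 and EXOSC2, core subunits of the RNA exosome, fell 2.11-fold and 2.07-fold. DIS3, the exosome's nuclease, named here with its value already known, rose 1.49-fold, so the complex did not move as one. With each array centred 8 rose and 9 fell, with a median of -0.04. Of 27 listed symbols of genes that process, edit or sense double-stranded RNA, aliases included, 10 had a named probe set. Among these, 0 rose and 7 fell (median -0.43), beside 18.2% higher and 22.7% lower over all named genes. The 8 at or above the dim limit held 0 rises and 6 falls, beside 25.2% and 30.6% of all named genes at or above it. With each array centred 1 of the 10 rose and 4 fell. IFIH1, the cytoplasmic sensor MDA5, fell 3.82-fold, DHX9, a helicase that unwinds double-stranded RNA, 2.49-fold and DGCR8, the partner of DROSHA in microRNA processing, 1.68-fold.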

How the data were processed

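RNA of 4 SW620 samples was measured on single-colour GeneChip arrays. The deposited table holds a value per probe set and array, 53617 in all, with no stated scale. The values run from 0.71 to 13.8, above 11.09, the natural logarithm of a 16-bit scanner's range, and below 16, its log2, so they were taken as log2 signal as deposited by the authors. Partek is named, per the submitters' processing notes. For background, scaling and the summary of probes, the method was not given in the sources used here. Scaling of arrays would hide a change in total RNA per cell. Platform annotation names 16098 probe sets, each with 1 gene symbol, for 14884 genes; the other 37519 entered only an alternative. Gene positions and sequences were not used here.

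All named genes went into 1 model with group as its term, using limma 3.58.1 (lmFit, then eBayes with trend) under R 4.3.3, with two-sided p adjusted by Benjamini-Hochberg over all of them. Pair differences were fitted without a trend, and their p adjusted together with those of all genes. The fits were tested on simulated data. Members, lists and tests were chosen with earlier results of these data known. The text names SUV39H1, SUV39H2, 10 rises and 10 falls of greatest size among passing members with groups that do not overlap, all opposite pairs, the 5 brightest members, 12 members listed by name (1 is not reported here), their partners and 3 genes per context list; others are marked as chosen after their values were seen. A planned search for promoter motifs was not run. Replicate numbers were not treated as pairs, and array number, 2 per group, limits precision.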

Additional observations from a re-analysis of the deposited data

How the results depend on the processing

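The 12 alternatives were 2 other scalings, the dim-gene filter, 2 variance models, averaging a gene's probe sets, every probe set in the test, the replicate block and each array left out. Counts of antisense transcripts that fell (34 to 52) and of partners that rose (54 to 90) or fell (40 to 66) stayed within 1.5 times their values of 50, 72 and 60. The count of antisense transcripts that rose was 27 to 40 with an array left out, with 27 without F5446 replicate 1, against 45. Pairs that differed numbered 73 with dim genes left out, where fewer pairs were tested, 85 to 91 with an array left out, and 112 with the genes' own SEs, chosen after the data were seen, against 123. Pairs passing in opposite directions numbered 5 to 13 and in the same direction 10 to 25, with 6 and 13 when every probe set was tested, against 12 and 24; without Ctrl replicate 2 they were 6 and 16, without F5446 replicate 1 they were 7 and 10, and without F5446 replicate 2 they were 5 and 12. Of the 95 antisense transcripts that passed, 53 kept their call in the 11 alternatives other than the replicate block that tested them.

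Same-numbered arrays deviated from their group means with a correlation of 0.0436. With so few arrays per group, this value cannot decide whether the replicate numbers pair the samples. With the replicate block, 43 antisense transcripts rose, 44 fell, 73 partners rose, 58 fell and 98 pairs differed. Of 78 genes followed singly, 52 kept direction and call throughout. A sign was turned in 16 cases, in none of which the gene had passed, and the cause was not tested. With each array centred these were THAP9 (0.01), SH3BP5 (0.04), AFAP1 (0.04), FEZF1-AS1 (0.05), FEZF1 (0.08) and PCGF3 (0.10). With an array left out, log2 fold changes ran from -0.04 to 0.23 for CDKN2B-AS1, -0.22 to 0.06 for FEZF1-AS1, -0.36 to 0.08 for SBF2-AS1, -0.08 to 0.68 for IDI2, -0.48 to 0.25 for THAP9, -0.08 to 0.02 for PCGF3 and -0.20 to 0.12 for FEZF1.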
